A study of Mus musculus with 6 samples.

Results

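MHC class I presentation was described here through 9 genes, taken by symbol from the 47643 genes of the count table: the heavy chain genes H2-K1, H2-D1 and H2-T23, the light chain gene B2m, the peptide transporter genes Tap1 and Tap2, Tapbp, Erap1 and Nlrc5. All 9 were found and all 9 passed the filter on low counts. Polyadenylated RNA labelled as intestine was sequenced from male C57BL/6 mice of 7 to 8 weeks. All of them had been injected with tamoxifen and kept on a 60% high-fat diet for 2 weeks. The 3 libraries called Myc-deleted here came from MycΔIE, ERT2 mice, a genotype name that denotes deletion of Myc with a tamoxifen-activated recombinase, and the 3 control libraries from Mycfl/fl mice, whose Myc gene is floxed. Which promoter drives the recombinase, whether the controls carry one, and which segment or layer was sampled is not given in the sources used here, so loss of Myc and recombinase activity cannot be told apart. Whether mice were pooled is not stated either, and p-values measure the spread between these libraries.

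MHC class I molecules show peptides from inside the cell to CD8 T cells and are made by nearly every nucleated cell. Peptides cut by the proteasome are pumped into the endoplasmic reticulum by the Tap1 and Tap2 heterodimer, trimmed there by the aminopeptidase Erap1, and loaded on a heavy chain paired with beta-2 microglobulin (B2m), which tapasin (Tapbp) holds to the transporter. Interferons raise the pathway, and Nlrc5 is the transactivator that assembles on the conserved promoter module of class I genes. In the intestine, class I and class I-like molecules on epithelial cells are also seen by intraepithelial lymphocytes.

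Library totals ran from 9956938 to 11328693 expected counts, so that 3 counts correspond to 0.265 to 0.301 CPM (counts relative to library size, here scaled between libraries by trimmed mean of M values). Myc had 36, 47 and 63 counts in Myc-deleted libraries 1 to 3 and 59, 70 and 59 in control libraries 1 to 3, and its difference did not pass (log2 fold change -0.41 ± 0.22 SE, edgeR adjusted p = 0.318). The Myc level therefore does not check the label of Myc-deleted library 3, which had 5.81 CPM where the control libraries had 5.86 to 6.05. Epithelial genes were abundant in every library, with Epcam at 3500 CPM in the Myc-deleted and 3049 CPM in the control group on average. The extraction protocol names liver, but the hepatocyte gene Alb averaged 0.582 CPM in the Myc-deleted and 2.62 CPM in the control group. Tat, another gene of the hepatocyte list, averaged 11.7 CPM in the Myc-deleted and 32.2 CPM in the control group. Control library 2 stood apart in smooth muscle genes, with 299 counts of Myh11 against 24 to 50 in the other 5 libraries.

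Of the 9 class I genes, 0 passed (edgeR quasi-likelihood test, p-values adjusted over all genes by Benjamini and Hochberg), where 7.95% of 12720 tested genes passed, 4.22% higher and 3.73% lower in the Myc-deleted mice (537 and 474 genes, and 449 higher and 591 lower with upper-quartile scaling). All 9 had a higher mean in the Myc-deleted mice, where 49.8% of all tested genes had a positive fold change. An unadjusted p under 0.05 was found for 7 of the 9 and for 22.2% of all tested genes. Their median log2 fold change was 0.49, against -0.002 over all tested genes. In 3 of the 9 every Myc-deleted library lay above every control library, as in 14.0% of all tested genes. The 9 genes varied together over the 6 libraries, so these counts are not of independent genes. Their correlation with the mean of the other members ran from 0.812 for B2m to 0.997 for H2-D1. DESeq2 called 6 of the 9 higher and limma voom called 1, H2-K1 (adjusted p = 0.0472), while edgeR with no filter on low counts called 7, all but B2m and Erap1. Leaving out a library also changed the calls. Without control library 3, H2-K1 (log2 fold change 0.73, adjusted p = 0.0223), H2-D1 (0.64, 0.0457), Tap2 (0.755, 0.0187) and Tapbp (0.54, 0.0209) passed. Without Myc-deleted library 2, H2-T23 (0.60, 0.0392) and Nlrc5 (1.13, 0.0291) passed, and leaving out any of the other 4 libraries gave no call.

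**Figure D1:**
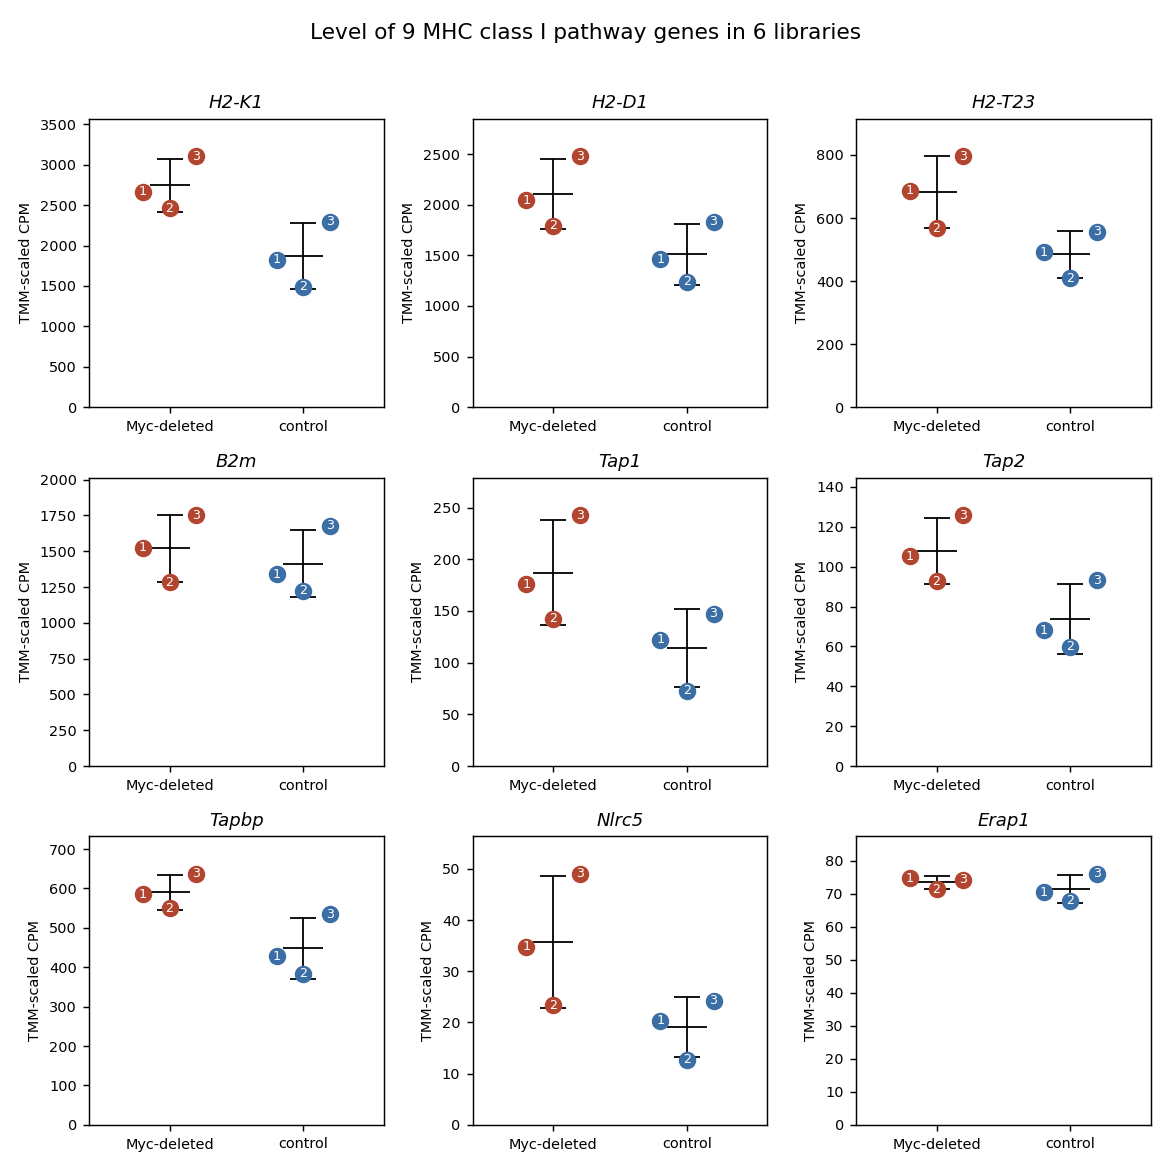
TMM-scaled CPM (y axis, from 0) of the 9 class I pathway genes in the Myc-deleted (left) and control (right) libraries. Each numbered point is 1 library, and the black mark and bar are the mean and SD of 3. H2-K1, H2-T23 and Tapbp had no overlap between groups, and in every panel control library 2 was the lowest and control library 3 the highest of the controls.

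The heavy chain genes lie in the H2 region of chromosome 17 (coordinates are GENCODE M21, GRCm38, the assembly also called mm10). H2-K1 (33996017 to 34000347, minus strand), a classical class I heavy chain, had 2668, 2463 and 3103 CPM in Myc-deleted libraries 1 to 3 and 1824, 1490 and 2296 CPM in control libraries 1 to 3. Every Myc-deleted library lay above every control. The fold change was 1.47 (log2 0.55 ± 0.16 SE, edgeR adjusted p = 0.0593). H2-D1 (35262730 to 35267499, plus strand), the second classical heavy chain of C57BL/6 mice, had 2046, 1792 and 2477 CPM in Myc-deleted libraries 1 to 3 and 1459, 1240 and 1831 CPM in control libraries 1 to 3. The groups overlapped because control library 3 lay above Myc-deleted library 2. The fold change was 1.39 (log2 0.48 ± 0.16 SE, edgeR adjusted p = 0.103). H2-T23 (36029773 to 36032855, minus strand) encodes the heavy chain of Qa-1, a nonclassical molecule that the CD94/NKG2 receptors of lymphocytes recognise. It had 687, 568 and 796 CPM in Myc-deleted libraries 1 to 3 and 491.5, 408 and 557 CPM in control libraries 1 to 3. The groups did not overlap, with a narrow gap between Myc-deleted library 2 and control library 3, and the fold change was 1.41 (log2 0.49 ± 0.14 SE, edgeR adjusted p = 0.0633).

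B2m (chromosome 2, 122147686 to 122153083, plus strand), the light chain of all these molecules, had 1526, 1283 and 1752 CPM in Myc-deleted libraries 1 to 3 and 1340, 1225 and 1678 CPM in control libraries 1 to 3. The groups overlapped widely. The fold change was 1.08 with a 95% interval of 0.862 to 1.34 (log2 0.10 ± 0.14 SE, edgeR adjusted p = 0.727). Its sign turned without Myc-deleted library 3 (-0.02 on the log2 scale) and without control library 2 (-0.001).

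Heavy and light chain levels had the same order of libraries within each group, and their ratio within a library varied less than either level. Counts of H2-K1 per count of B2m were 1.75, 1.92 and 1.77 in Myc-deleted libraries 1 to 3 and 1.36, 1.22 and 1.37 in control libraries 1 to 3. H2-D1 over B2m was 1.34, 1.40 and 1.41 in the Myc-deleted and 1.09, 1.01 and 1.09 in the control libraries. H2-T23 over B2m averaged 0.449 ± 0.00577 in the Myc-deleted and 0.344 ± 0.0198 in the control libraries (SD, n = 3 each). None of the 3 ratios overlapped between groups, and the log2 differences were 0.46, 0.38 and 0.39. Every Myc-deleted library lay above every control in 14.0% of single tested genes, and no such share was computed for ratios. The 3 ratios share B2m as denominator, and their heavy chains had the same order of libraries within each group, so they are not independent. These ratios do not depend on the scaling between libraries and were chosen after the values were seen. A two-sided exact permutation test gave p = 0.1 for each, the smallest that 3 against 3 libraries can give. Groups that do not overlap always give this p, so the test adds nothing to the separation already seen. No outcome of this permutation test could pass a threshold of 0.05. H2-K1 over H2-D1 was 1.31 ± 0.0610 in the Myc-deleted and 1.24 ± 0.0291 in the control libraries (SD, n = 3 each).

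**Figure D2:**
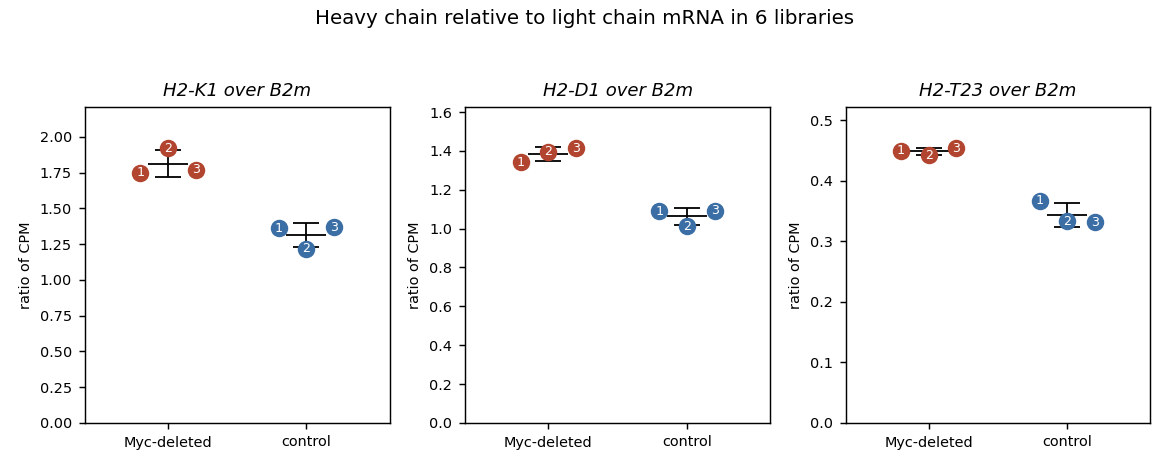
Ratio of the CPM of H2-K1, H2-D1 and H2-T23 to the CPM of B2m (y axis, from 0) in the Myc-deleted (left) and control (right) libraries. Numbered points are libraries, and the mark and bar are the mean and SD of 3. The Myc-deleted libraries lie above the controls in each panel, at 1.75 to 1.92 against 1.22 to 1.37 for H2-K1.

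Tap1 and Tap2 encode the transporter that carries peptides into the endoplasmic reticulum. Tap1 (chromosome 17, 34187553 to 34197225, plus strand) had 176, 143 and 243 CPM in Myc-deleted libraries 1 to 3 and 122, 72.6 and 147 CPM in control libraries 1 to 3. Control library 3 lay slightly above Myc-deleted library 2, control library 2 was far below the rest, and the fold change was 1.64 (log2 0.715 ± 0.25 SE, edgeR adjusted p = 0.117). Tap2 (34203527 to 34216321, plus strand) had 105, 92.8 and 126 CPM in Myc-deleted libraries 1 to 3 and 68.2, 59.8 and 93.3 CPM in control libraries 1 to 3. The overlap was again that of control library 3 with Myc-deleted library 2, and the fold change was 1.47 (log2 0.55 ± 0.16 SE, edgeR adjusted p = 0.0712). Tapbp (33915899 to 33929292, plus strand), the tapasin gene, had 585, 550 and 637 CPM in Myc-deleted libraries 1 to 3 and 428, 384 and 534.5 CPM in control libraries 1 to 3. Its groups did not overlap, and the fold change was 1.32 (log2 0.40 ± 0.12 SE, edgeR adjusted p = 0.0790).

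Nlrc5 (chromosome 8, 94434356 to 94527272, plus strand), the class I transactivator, had the largest fold change of the 9 and the lowest counts. It had 34.8, 23.3 and 49.0 CPM in Myc-deleted libraries 1 to 3 (380, 251 and 531 counts) and 20.4, 12.7 and 24.2 CPM in control libraries 1 to 3 (205, 147 and 237 counts). Control library 3 just exceeded Myc-deleted library 2, and the fold change was 1.88 with a 95% interval of 1.23 to 2.88 (log2 0.91 ± 0.28 SE, edgeR adjusted p = 0.0787). Erap1 (chromosome 13, 74639568 to 74693201, plus strand), the aminopeptidase that trims peptides to class I length, was the flattest of the 9. It had 74.8, 71.3 and 74.3 CPM in Myc-deleted libraries 1 to 3 and 70.5, 67.95 and 76.0 CPM in control libraries 1 to 3. The values interleaved between groups, and the fold change was 1.03 with a 95% interval of 0.914 to 1.16 (log2 0.04 ± 0.08 SE, edgeR adjusted p = 0.8125). The sign turned with upper-quartile scaling (-0.001) and without control library 2 (-0.006).

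Within each group the libraries kept nearly the same order across the 9 genes. Myc-deleted library 3 was the highest of its group in 8 genes, Erap1 being the exception, and Myc-deleted library 2 the lowest in 9. Control library 3 was the highest of its group in 9 genes and control library 2 the lowest in 9. The mean centred log2 CPM of the 9 genes was 0.231, 0.004 and 0.479 in Myc-deleted libraries 1 to 3. In control libraries 1 to 3 it was -0.231, -0.536 and 0.054, the same order by number. The test reported did not pair libraries, and a fit with a replicate block called 7 of the 9 higher. Control library 3 exceeded Myc-deleted library 2 in 6 of the 9 genes. Myc-deleted library 2 and control library 3 were the pair that overlapped in H2-D1, Tap1, Tap2 and Nlrc5.

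Per kilobase of annotated exon, B2m was the most abundant of the 9, at 1768 ± 273 CPM per kb in the Myc-deleted and 1645 ± 274 CPM per kb in the control libraries (SD, n = 3 each). H2-K1 followed at 934 ± 111 in the Myc-deleted and 636.5 ± 138 CPM per kb in the control libraries. H2-D1 stood at 816 ± 134 and 586 ± 116 CPM per kb in the Myc-deleted and control libraries. Within each of the 6 libraries it lay below H2-K1. In Myc-deleted libraries 1 to 3, H2-D1 had 793, 695 and 960.5 CPM per kb against 908, 838 and 1056 for H2-K1. In control libraries 1 to 3, H2-D1 had 566, 481 and 710 CPM per kb against 621, 507 and 781.5 for H2-K1. H2-T23 came next (237 ± 39.4 in the Myc-deleted and 168 ± 25.8 CPM per kb in the control libraries), then Tapbp (163 ± 12.1 in the Myc-deleted and 124 ± 21.3 CPM per kb in the control libraries). Tap1 stood at 34.2 ± 9.29 in the Myc-deleted and 20.8 ± 6.95 CPM per kb in the control libraries. Tap2 stood at 28.6 ± 4.42 in the Myc-deleted and 19.5 ± 4.60 CPM per kb in the control libraries. Tap1 lay above Tap2 in every library but control library 2, which had 13.3 CPM per kb of Tap1 and 15.8 of Tap2. Erap1 (10.09 ± 0.255 in the Myc-deleted and 9.82 ± 0.566 CPM per kb in the control libraries) and Nlrc5 (4.20 ± 1.52 in the Myc-deleted and 2.25 ± 0.690 in the control libraries) were lowest. Lengths are the union of all annotated exons, which understates genes with many rarely used exons.

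Reads of near-identical heavy chains are divided between genes by RSEM, so the single heavy chain values are uncertain to that extent. Of all 50-base windows in annotated transcripts, 9.63% of those of H2-K1, 12.8% of H2-D1 and 13.6% of H2-T23 were also found in transcripts of another gene, against 0 for B2m, Nlrc5 and Erap1. With the 23 heavy chain genes of the H2 region in the table summed into 1 feature (an alternative added once the values had been seen), the sum was 6493, 5880 and 7781 CPM in Myc-deleted libraries 1 to 3 and 4579, 3855 and 5641 CPM in control libraries 1 to 3. The summed feature had a log2 fold change of 0.51 ± 0.16 SE (edgeR adjusted p = 0.0877), and passed without control library 3 (0.67, adjusted p = 0.0390). Among overlapping genes, Psmb9 shares 212 exon bases with Tap1 on the opposite strand, and the calpastatin gene Cast shares 834 with Erap1, so their reads are separated only if the counting used strand, which is not stated. Zbtb22 shares 149 exon bases with Tapbp on the same strand and had 292 to 460 counts in a library. Strand cannot separate the reads of that stretch. The antisense genes over Tap2 and Tapbp had at most 6 counts in a library.

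The promoter windows of H2-K1, H2-D1, B2m, Tap1 and Erap1 are printed because the members named above differ in how many of the known class I promoter elements they hold. RefSeq (GRCm38.p6) gives a window of 250 bases before to 50 after the start site for 7 of the 9 genes, all but Tap2 and Nlrc5. Capitals mark matches, on either strand, to the core motif of interferon regulatory factors (AANNGAAA), the kB consensus bound by NF-kB, the cyclic AMP response half-site (TGACG), the CCAAT box (CCAAT) and the E-box of Myc (CACGTG). Matches of the kB consensus on both strands overlap each other in the heavy chain genes.
H2-K1, chr17:34000298-34000597, minus strand: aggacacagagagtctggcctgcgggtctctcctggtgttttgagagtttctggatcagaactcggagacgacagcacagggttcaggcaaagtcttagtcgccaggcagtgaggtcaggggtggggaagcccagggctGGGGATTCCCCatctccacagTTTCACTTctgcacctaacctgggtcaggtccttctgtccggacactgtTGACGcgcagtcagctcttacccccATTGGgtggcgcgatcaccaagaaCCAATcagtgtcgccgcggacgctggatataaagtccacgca
H2-D1, chr17:35262844-35263143, plus strand: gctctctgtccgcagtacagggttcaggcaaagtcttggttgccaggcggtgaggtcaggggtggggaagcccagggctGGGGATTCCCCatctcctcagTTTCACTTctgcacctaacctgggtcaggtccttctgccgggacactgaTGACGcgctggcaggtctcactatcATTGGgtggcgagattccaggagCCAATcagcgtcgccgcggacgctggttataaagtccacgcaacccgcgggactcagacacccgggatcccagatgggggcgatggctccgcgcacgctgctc
B2m, chr2:122147437-122147736, plus strand: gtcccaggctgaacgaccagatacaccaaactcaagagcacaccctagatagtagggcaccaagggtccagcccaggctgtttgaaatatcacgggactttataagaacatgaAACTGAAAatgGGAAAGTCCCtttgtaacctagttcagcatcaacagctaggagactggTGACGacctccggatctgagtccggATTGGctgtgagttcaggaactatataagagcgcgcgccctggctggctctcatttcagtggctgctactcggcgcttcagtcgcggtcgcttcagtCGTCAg
Tap1, chr17:34187306-34187605, plus strand: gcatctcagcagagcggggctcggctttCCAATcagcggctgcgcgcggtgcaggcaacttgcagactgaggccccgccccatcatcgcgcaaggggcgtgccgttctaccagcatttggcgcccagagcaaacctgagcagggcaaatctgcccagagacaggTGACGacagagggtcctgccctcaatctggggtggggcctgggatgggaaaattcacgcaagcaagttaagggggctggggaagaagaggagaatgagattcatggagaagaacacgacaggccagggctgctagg
Erap1, chr13:74639603-74639902, plus strand: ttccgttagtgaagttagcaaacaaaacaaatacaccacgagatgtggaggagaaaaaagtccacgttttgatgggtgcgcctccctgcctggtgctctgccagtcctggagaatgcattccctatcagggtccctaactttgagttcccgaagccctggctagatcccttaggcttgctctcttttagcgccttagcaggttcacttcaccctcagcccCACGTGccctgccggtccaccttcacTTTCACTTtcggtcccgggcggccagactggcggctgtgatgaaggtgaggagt

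The windows of H2-K1 and H2-D1 aligned over 239 bases with 211 identical (88.3%). Each held, in the same order, a block of kB matches, the interferon regulatory factor core, the cyclic AMP response half-site and a pair of CCAAT boxes on opposite strands. B2m held the same 4 motifs, with the interferon regulatory factor core ahead of the kB match. Tap1 held a CCAAT box and a cyclic AMP response half-site, while Erap1 held an interferon regulatory factor core across its start site and an E-box. Of the windows not printed, that of H2-T23 held 2 interferon regulatory factor cores and 1 CCAAT box. That of Tapbp held 2 CCAAT boxes and none of the other motifs. Over the 7 windows, the interferon regulatory factor core was found in 5, the kB consensus in 3, the half-site in 4, the CCAAT box in 6 and the E-box in 1. Of all 32851 windows in the table, 23.9% held the interferon regulatory factor core, 8.46% the kB consensus, 20.8% the half-site, 37.4% the CCAAT box and 7.15% the E-box. The interferon gamma activated site (TTCNNNGAA) was in none of the 7 windows and in 8.30% of all windows.

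**Figure D3:**
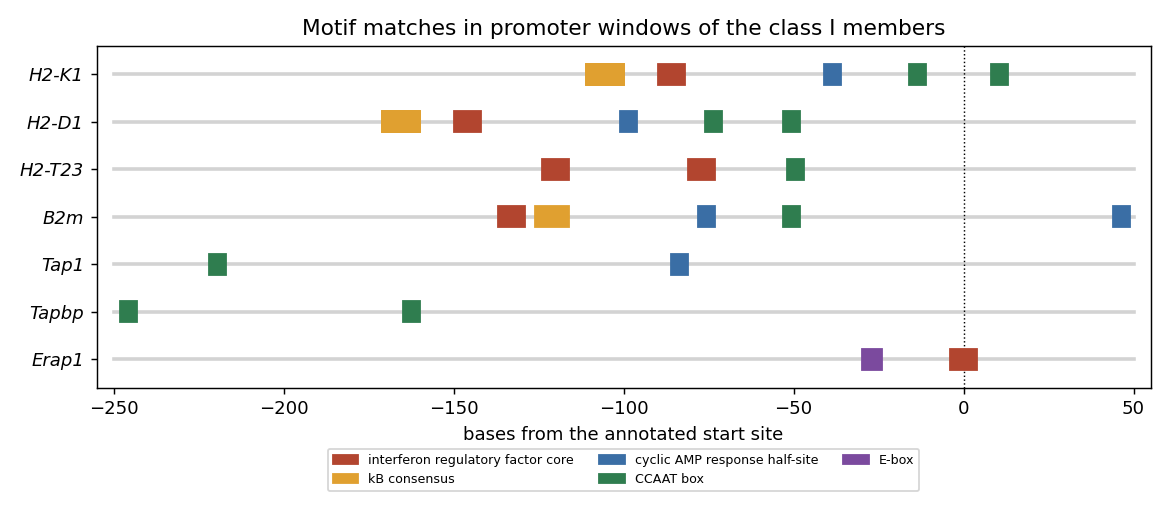
Positions of motif matches (coloured boxes) in the promoter windows of 7 class I members, 1 gene per line, with the distance in bases from the annotated start site (dotted line) on the x axis. H2-K1 is drawn at the first of its 2 annotated starts. H2-K1 and H2-D1 carry the same blocks in the same order, at different distances from their annotated starts.

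Other class I genes were described from a list of 31 classical, nonclassical and class I-like heavy chains, of which 27 were in the table and 18 were tested. In the edgeR test with all 6 libraries, 1 of the 18 rose and 0 fell. Over all tested genes 4.22% rose and 3.73% fell, so the number of calls in the list is close to these shares. The gene that rose was H2-Q4, a nonclassical heavy chain gene of the Q region. It had 119 CPM on average in the Myc-deleted and 64.4 CPM in the control libraries (log2 fold change 0.89 ± 0.19 SE, edgeR adjusted p = 0.0181). It did not pass without control library 1 (adjusted p = 0.0608) or 2 (0.0911). The median log2 fold change of the 18 was 0.47, 17 of them had a positive one, and 11 had an unadjusted p under 0.05, against 49.8% and 22.2% of all tested genes. DESeq2 called 4 of the 18 higher and edgeR with no filter on low counts 7. Without Myc-deleted library 1, 6 of the list passed, and without control library 1 or 2, 0 passed. H2-Q6, H2-Q7 and H2-T22, a ligand of gamma delta T cell receptors, had log2 fold changes of 1.03 ± 0.29, 1.02 ± 0.32 and 0.90 ± 0.25 (SE) that did not pass (edgeR adjusted p = 0.0636, 0.0863 and 0.0576). In Myc-deleted library 3 these 3 genes had 827, 1114 and 2497 counts, against at most 371, 495 and 1288 in any other library. Without Myc-deleted library 3 their log2 fold changes were 0.52, 0.49 and 0.475. H2-T3, which encodes the thymus leukaemia antigen of enterocytes that binds CD8 alpha homodimers on intraepithelial lymphocytes, had 219 ± 0.783 CPM in the Myc-deleted and 199 ± 5.27 CPM in the control libraries (log2 fold change 0.14 ± 0.07 SE, edgeR adjusted p = 0.275). Fcgrt, the neonatal Fc receptor, was the 1 tested gene of the list with a negative value (-0.27 ± 0.09 SE, edgeR adjusted p = 0.113).

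**Figure D4:**
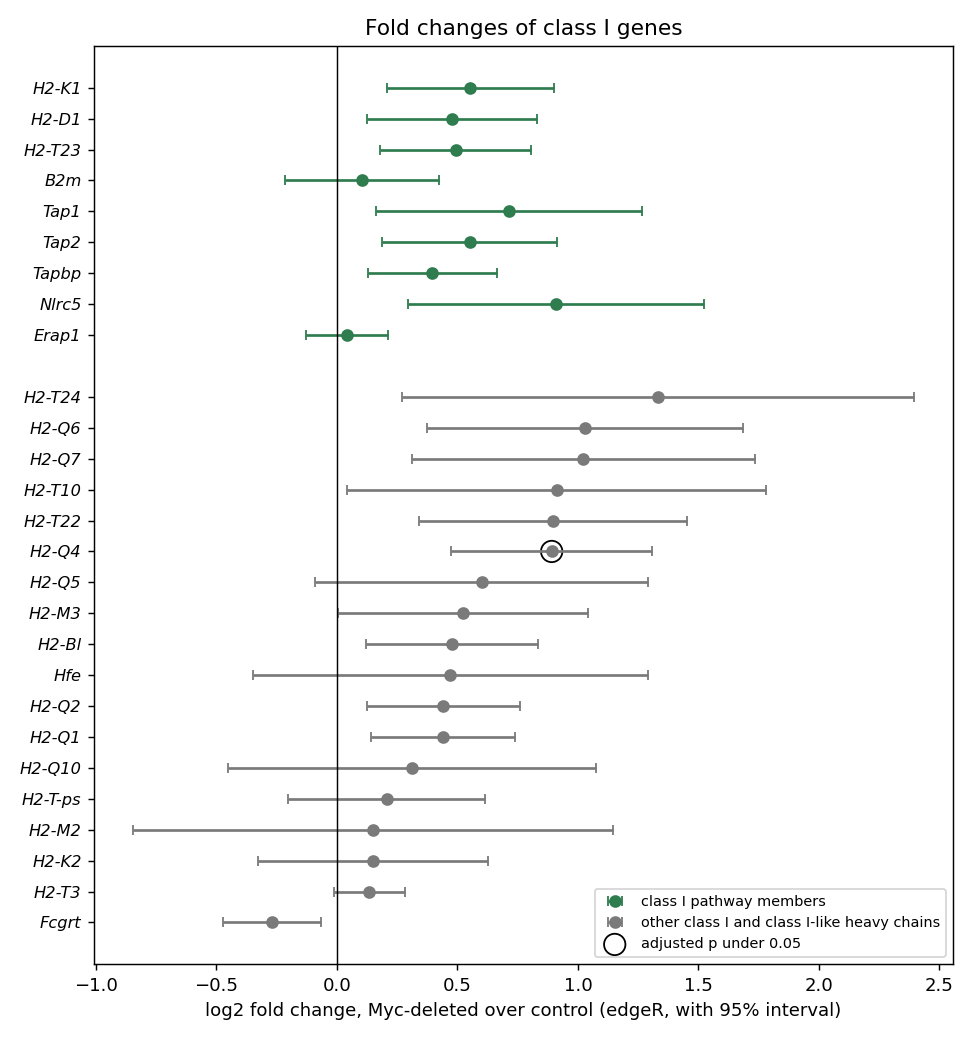
Log2 fold change of Myc-deleted over control (x axis) with its 95% interval for the 9 class I pathway members (green) and the 18 tested other heavy chains (grey), 1 gene per line. A black ring marks an adjusted p under 0.05, which H2-Q4 had at 0.89. Among the members, the intervals of B2m and Erap1 cross 0. Among the other heavy chains, those of H2-K2, H2-Q5, H2-Q10, H2-T3, H2-T-ps, H2-M2 and Hfe do so.

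The steps before and around loading were described from lists of the same pathway. Of 5 immunoproteasome and proteasome activator genes, 0 passed and 2 had an unadjusted p under 0.05, against 22.2% of all tested genes. DESeq2 called 0, and 1 gene was called with no filter on low counts and 1 without control library 3. Their median log2 fold change was 0.295. Psmb9, the inducible catalytic subunit encoded head to head with Tap1, had 863, 736 and 1235 counts in Myc-deleted libraries 1 to 3 and 580, 469 and 739 in control libraries 1 to 3 (log2 fold change 0.59 ± 0.23 SE, edgeR adjusted p = 0.158). The 3 constitutive catalytic subunits had a median of 0.01, with 0 passing in any fit and 0 with an unadjusted p under 0.05. Of 15 genes of peptide loading and folding in the endoplasmic reticulum, 1 rose and 0 fell, against 4.22% and 3.73% of all tested genes. Their median was 0.02, and upper-quartile scaling gave 0 higher and 1 lower. Syvn1, a ubiquitin ligase of the membrane that serves degradation of misfolded proteins, was the riser (0.46 ± 0.12 SE, edgeR adjusted p = 0.0488, and 0.0611 with upper-quartile scaling). It passed in 1 of 6 runs that each left out a library, the run without control library 3 (adjusted p = 0.0232), and had adjusted p of 0.0591 to 0.206 in the others. The chaperones of the loading complex, Calr (-0.12 ± 0.12 SE), Canx (-0.31 ± 0.09) and Pdia3 (0.03 ± 0.12), did not pass (edgeR adjusted p = 0.627, 0.0576 and 0.917). Canx was called lower with upper-quartile scaling (adjusted p = 0.0346), DESeq2 (0.0123), no filter on low counts (0.0435) and without control library 1 (0.0479). Of 10 class II genes, 0 passed in any fit and 0 had an unadjusted p under 0.05, with a median of 0.16.

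A list of 19 genes held factors of class I promoters and regulators of the signalling that reaches them. Of these, 3 rose and 0 fell, against 4.22% and 3.73% of all tested genes, with a median log2 fold change of 0.06. Stat2 and Irf9, which act downstream of type I and III interferon receptors, were among those that rose. Stat2 averaged 133 CPM in the Myc-deleted and 68.8 CPM in the control libraries (0.95 ± 0.15 SE, edgeR adjusted p = 0.00441), and Irf9 averaged 69.3 CPM in the Myc-deleted and 46.2 CPM in the control libraries (0.59 ± 0.11, 0.00986). Both passed in each of the 6 runs that left out a library. Irf1, a direct activator of class I genes, had 216 CPM in the Myc-deleted and 235 CPM in the control libraries (-0.12 ± 0.12, edgeR adjusted p = 0.612, and 0.03 on the log2 scale without control library 3). The subunits that Nlrc5 joins on the promoter, Rfx5, Rfxap, Rfxank, Nfya, Nfyb and Nfyc, had log2 fold changes of -0.105 to 0.215 and did not pass.

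Of 9 interferon receptor and kinase genes, 1 rose and 0 fell, against 4.22% and 3.73% of all tested genes. The gene that rose was Ifnlr1, the receptor subunit for interferon lambda that epithelial cells carry (0.44 ± 0.10 SE, edgeR adjusted p = 0.0243). It passed in 1 of the 6 runs that left out a library, the run without Myc-deleted library 2 (adjusted p = 0.0190). The interferon transcripts themselves were hardly detected. Ifng had 2, 2 and 0 counts in Myc-deleted libraries 1 to 3 and 1, 0 and 3 in control libraries 1 to 3, and the 8 other interferon genes of the list had 0 counts in every library, which allows up to 3 counts in each. Of 32 interferon-stimulated genes outside antigen presentation, 18 rose and 0 fell, against 4.22% and 3.73% of all tested genes. Their median log2 fold change was 1.40. Oas3, which makes the signal for RNase L, averaged 213 CPM in the Myc-deleted and 59.95 CPM in the control libraries (1.83 ± 0.24 SE, edgeR adjusted p = 0.00207) and passed in each run that left out a library. Irf7, an interferon-inducible transcription factor, averaged 629 CPM in the Myc-deleted and 265 CPM in the control libraries (1.251 ± 0.248, 0.0139), and did not pass without control library 2 (0.0735). Ifit2, an RNA-binding antiviral protein, had 201, 157 and 1395 counts in Myc-deleted libraries 1 to 3 and 62, 44 and 74 in control libraries 1 to 3 (3.22 ± 0.81, 0.0389). Leaving out Myc-deleted library 3 brought its log2 fold change to 1.504, and Ifit2 did not pass without any 1 of the controls (0.0956 to 0.161). The summed level of the list was 2558, 2444 and 5301 CPM in Myc-deleted libraries 1 to 3 and 1488, 942 and 1446 CPM in control libraries 1 to 3. Without control library 2, 5 of the 32 rose, and without control library 3, 11 did.

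**Figure D5:**
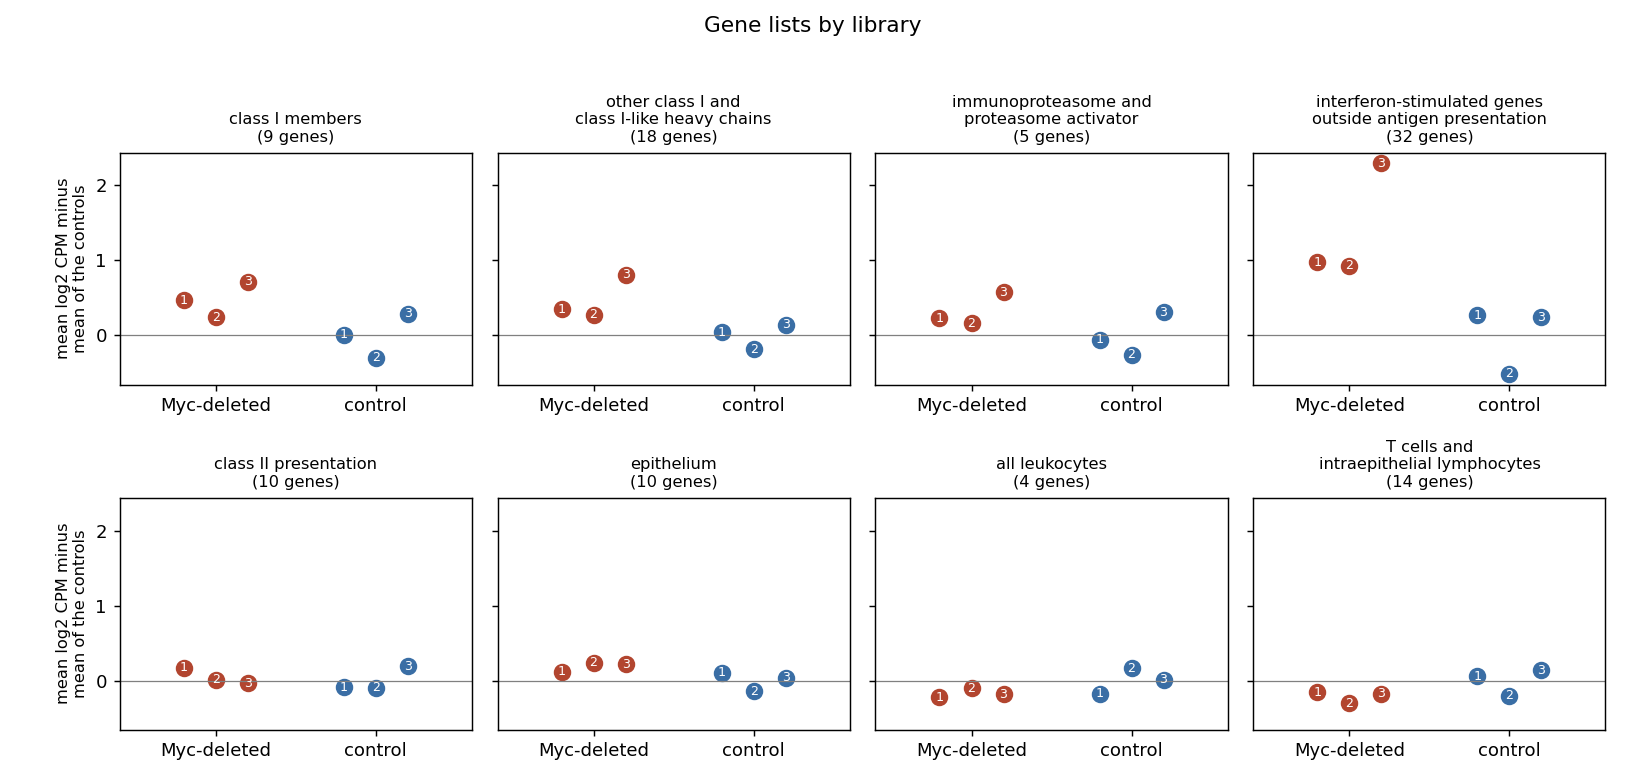
Mean log2 CPM of the tested genes of 8 lists in each library, relative to the mean of the 3 controls (y axis), with Myc-deleted libraries left and controls right, and library numbers in the points. Interferon-stimulated genes are highest in Myc-deleted library 3 and lowest in control library 2, which were also the highest and the lowest library of the class I members.

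Markers of other cell types were summed in each library beside these values. Of 14 T cell and intraepithelial lymphocyte markers, 0 passed, 2 had an unadjusted p under 0.05 and 0 had a positive fold change. Their summed level ran from 133 to 157.5 CPM in the Myc-deleted and from 141 to 201.5 CPM in the control libraries. The 4 markers of all leukocytes summed to 124 to 138.5 CPM in the Myc-deleted and 127 to 162 CPM in the control libraries. Macrophage and dendritic cell markers (11 genes) summed to 119 to 128.5 CPM in the Myc-deleted and 134 to 153 CPM in the control libraries. The 8 B and plasma cell markers summed to 2715 to 3068 CPM in the Myc-deleted and 2020 to 2513 CPM in the control libraries, with 0 passing. An unadjusted p under 0.05 was found for 1 of the leukocyte, 2 of the macrophage and dendritic cell and 2 of the B and plasma cell markers. Over all tested genes the share with such a p was 22.2%. Among the 10 epithelial markers 1 rose, Fabp2 (0.90 ± 0.18 SE, edgeR adjusted p = 0.0131), where 4.22% of all tested genes rose. Fabp2 did not pass without control library 2 (0.0693). The epithelial list summed to 33020 to 37930 CPM in the Myc-deleted and 27500 to 32420 CPM in the control libraries. Fabp2 alone averaged 8859 CPM in the Myc-deleted and 4759 CPM in the control libraries, and Apoa4 3385 and 2025 CPM. Every Myc-deleted library lay above every control for 2 of the 10 markers, Fabp2 and Cdh1, and below for 2, Krt8 and Krt19. Over all tested genes these shares were 14.0% and 13.7%. The median log2 fold change of the 10 was 0.115. Over the 4 immune cell lists DESeq2 called 1 gene in all, of the B and plasma cells. Smooth muscle, fibroblast and endothelial markers (8 genes) summed to 56.7 to 75.8 CPM in the Myc-deleted and 58.0 to 113 CPM in the control libraries, with 0 passing, 2 at an unadjusted p under 0.05 and 1 called by DESeq2. Of the 4 hepatocyte markers tested, Alb and Tat fell, where 3.73% of all tested genes fell. Ttr (0.30 ± 0.29 SE) and Apoh (0.25 ± 0.49) had positive values that did not pass (edgeR adjusted p = 0.6035 and 0.814). Alb had few counts, 10, 1 and 8 in Myc-deleted libraries 1 to 3 and 19, 37 and 27 in control libraries 1 to 3. Alb (-2.15 ± 0.52 SE, edgeR adjusted p = 0.0326) passed in 1 of the 6 runs that left out a library, the run without Myc-deleted library 1. Tat (-1.46 ± 0.34, 0.0276) did not pass without control library 2 (0.0892) or 3 (0.0926). The part of cell composition in the class I values was not tested, and in bulk RNA fewer cells of a type and less RNA per cell cannot be told apart.

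The genes whose levels were most like the mean of the 9 members over the 6 libraries, by Pearson correlation of log2 CPM among genes outside the 9, were Slc27a1 (r = 0.9896), Psmb9 (0.989), Specc1 (0.9886), Zbp1 (0.9881) and Atoh1 (0.9878). Slc27a1 encodes a fatty acid transport protein, Zbp1 a sensor of left-handed nucleic acids and Atoh1 the factor that directs secretory cell fate. With 6 libraries in 2 groups these values are a description only, and none of the 5 genes passed the test between groups (edgeR adjusted p = 0.107 to 0.254).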

How the data were processed

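RNA of 6 libraries (3 per group) was sequenced after TruSeq Stranded mRNA preparation, per the labels' protocols. Expected counts per gene were deposited by the authors. The submitters' processing notes name cutadapt, STAR, Picard, RSEM and the mm10 genome, without versions, and no annotation release or strand setting is named there. Of 47643 gene IDs, 47224 (99.1%) were matched to symbols of GENCODE M21. After rounding of the expected counts, genes were kept by filterByExpr at a minimum count of 10 and a minimum sum of 15. After TMM scaling they were compared by the quasi-likelihood test of edgeR 4.0.16 (R 4.3.3), with Benjamini-Hochberg adjustment over 12720 genes and a threshold of 0.05. Scripts were tested on simulated data. Log2 CPM used a prior count of 2. Levels with low counts are less precise, and RSEM divides shared reads between paralogues. Groups follow the genotype labels. Alternatives were DESeq2 1.42.0, limma voom 3.58.1, other scalings and filters, a replicate block and leaving out each library. Named genes were the 9 members, called or textbook genes of the lists, and the 5 genes most like the members among genes whose mean log2 CPM reached 1. Members and lists were chosen with earlier results of these data known. The values of 1 gene of the regulator list are not reported here.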

Additional observations from a re-analysis of the deposited data

How the results depend on the processing

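With no member called in the test reported, DESeq2 called 6, limma voom 1, the fit with no filter on low counts 7 and the fit with a replicate block 7, while 2 other scalings and a stricter filter called 0. Leaving out 1 library gave 0 to 4 calls, 2 without Myc-deleted library 2 and 4 without control library 3. The cause was not tested. Over all tested genes, same-numbered libraries had correlations of deviations of 0.026, 0.052 and 0.019. By the rule used, the numbers do not pair the libraries. Each library still correlated best with its own number, and the mean of the 9 members had the same order by number in both groups. With the replicate block, 6 of the 18 other heavy chains and 2 of the 5 immunoproteasome and activator genes were called higher. The median log2 fold change of the 9 stayed positive, at 0.36 to 0.64 without a library and 0.45 to 0.49 in the other settings. Adjusted p without a library ran from 0.0223 to 0.196 for H2-K1, 0.0392 to 0.229 for H2-T23 and 0.0291 to 0.249 for Nlrc5. Log2 fold changes without a library ran from -0.016 to 0.245 for B2m, from -0.006 to 0.086 for Erap1 and from -0.213 to 0.033 for Irf1. Signs turned for Erap1 with upper-quartile scaling (-0.001) and without control library 2, for B2m without Myc-deleted library 3 and without control library 2 (-0.001), and for Irf1 without control library 3. Over all genes, 1011 were called, 980 to 1273 in the other settings and 462 to 950 without a library. Upper-quartile scaling moved the median of all genes to -0.04. Counts under 3 per library are at the limit of detection.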

Other observations

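Among the 23 summed heavy chain genes of the H2 region, H2-K1 made up 40.95% ± 1.01 of the counts in the Myc-deleted and 39.7% ± 1.02 in the control libraries (SD, n = 3 each). H2-D1 made up 31.3% ± 0.707 in the Myc-deleted and 32.2% ± 0.3005 in the control libraries. H2-Q4 made up 1.59%, 1.64% and 2.03% in Myc-deleted libraries 1 to 3 and 1.415%, 1.38% and 1.33% in control libraries 1 to 3, and its groups did not overlap. H2-T3 made up 3.30% ± 0.461 in the Myc-deleted and 4.34% ± 0.794 in the control libraries. These shares were computed after the values were seen and were not tested.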
